A study of Mus musculus with 117 samples.

Results

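The genes described here are the mouse zinc finger protein genes named Zfp and a number. They were chosen by symbol alone, as autosomal protein-coding genes whose symbol starts with Zfp followed by a digit, and they number 388 of 20665 autosomal protein-coding genes in the RefSeq table of GRCm38.p6. Their gene spans, padded by 1 kb on each side, hold 69300 bins of 200 bp, which were compared with 5033901 bins in the padded spans of the other protein-coding genes. The rule itself uses no measured value.

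The chromatin came from hepatocytes, which make up most of the liver's mass, of female mice aged 12 weeks. Mice of 9 inbred strains were compared: 129S1/SvImJ, A/J, C57BL/6J, DBA/2J, NOD/ShiLtJ and NZO/HlLtJ, and the wild-derived CAST/EiJ, PWK/PhJ and WSB/EiJ. Each strain had 13 ChIP-seq libraries, 4 histone marks (H3K4me1, H3K4me3, H3K27ac and H3K27me3) in 3 mice each and 1 input, 117 libraries in all. No treatment is labelled. The strains differ from one another across the genome, so strain is the only contrast in the design.

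The deposited values are chromatin states: each strain has 1 segmentation in which every 200-bp bin carries a number from 1 to 14. The marks that make up a state are not given in the sources used here, so a state number serves only as a name. The mice of a strain share its segmentation, so each strain gives 1 value and every SD below is a spread over the 9 strains. Sequencing depth is unknown. As a check of the labelled cell type, state 1 lay within 1 kb of the start of 9 of 9 hepatocyte marker genes that have a start in the table (albumin among them) in all 9 strains. The same held for 2 of 18 markers of endothelial cells, Kupffer cells, stellate cells, cholangiocytes and lymphocytes, and for 48.8% of all genes. State 3 lay there in all 9 strains in 7 of the 9 hepatocyte markers.

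Most Zfp genes encode DNA-binding proteins built from tandem C2H2 fingers, each of which contacts a few bases. Many also carry a KRAB domain, which binds the corepressor TRIM28 and through it histone methyltransferases and heterochromatin proteins, and such proteins silence retroelements and guard imprinted loci. The family has grown by tandem duplication, so that many members lie in arrays of near-identical copies. A few genes with the same kind of symbol, such as Zfp36, encode CCCH fingers that bind RNA instead. The prefix therefore groups zinc finger proteins of more than one kind and function.

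State 3 marked gene starts, and the start is the most upstream start of a gene in the RefSeq promoter table. This table gave a start for 325 members and for 16457 genes in all. The 250 bases before the start of 5 members are printed first, from GRCm38.p6, because these starts show the range from state 3 in every strain to state 3 in none. All are the reference sequence, written 5′ to 3′ along the gene's strand, with each CG dinucleotide in capitals.

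Zfp281: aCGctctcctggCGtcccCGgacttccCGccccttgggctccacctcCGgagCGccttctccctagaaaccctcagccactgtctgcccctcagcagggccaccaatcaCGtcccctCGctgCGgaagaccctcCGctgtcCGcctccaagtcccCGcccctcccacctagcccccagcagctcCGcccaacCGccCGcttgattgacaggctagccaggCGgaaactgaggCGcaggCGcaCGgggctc

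Zfp69: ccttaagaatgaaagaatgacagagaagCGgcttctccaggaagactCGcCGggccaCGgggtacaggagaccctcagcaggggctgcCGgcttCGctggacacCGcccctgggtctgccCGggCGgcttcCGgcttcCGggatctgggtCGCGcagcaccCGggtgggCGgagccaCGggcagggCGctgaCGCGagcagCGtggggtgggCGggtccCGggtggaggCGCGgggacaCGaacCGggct

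Zfp872: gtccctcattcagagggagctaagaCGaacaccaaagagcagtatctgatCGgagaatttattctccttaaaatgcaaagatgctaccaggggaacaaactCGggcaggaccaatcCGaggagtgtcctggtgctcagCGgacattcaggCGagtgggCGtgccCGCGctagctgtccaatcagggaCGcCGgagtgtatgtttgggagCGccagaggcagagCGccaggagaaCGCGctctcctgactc

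Zfp57: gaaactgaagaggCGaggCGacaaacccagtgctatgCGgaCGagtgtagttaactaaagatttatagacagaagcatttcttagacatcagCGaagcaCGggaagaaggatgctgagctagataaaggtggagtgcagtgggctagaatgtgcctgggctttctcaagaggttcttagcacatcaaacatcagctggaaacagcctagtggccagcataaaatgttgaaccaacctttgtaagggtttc

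Zfp804b: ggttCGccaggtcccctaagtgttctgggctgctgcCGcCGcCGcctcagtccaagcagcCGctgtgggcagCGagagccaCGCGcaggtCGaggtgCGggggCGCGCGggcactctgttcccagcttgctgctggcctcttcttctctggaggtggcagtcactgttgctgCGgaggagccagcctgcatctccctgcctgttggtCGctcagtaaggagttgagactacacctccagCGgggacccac

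The Zfp281 run (chr1:136624651-136624900, plus strand) holds 19 CG dinucleotides. Its gene encodes a regulator of pluripotency that is made in many tissues, and it had state 3 at the start in all 9 strains. The Zfp69 run (chr4:120951702-120951951, minus strand) holds 26 CG dinucleotides. Zfp69 encodes a KRAB zinc finger protein linked to fatty liver and diabetes in mice, and it too had state 3 in all 9 strains.

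The Zfp872 run (chr9:22187916-22188165, plus strand) holds 15 CG dinucleotides and belongs to a start with state 3 in 3 strains. Zfp57 encodes the KRAB zinc finger protein that keeps DNA methylation at imprinted loci in early embryos. Its run (chr17:37000913-37001162, plus strand) holds 6 CG dinucleotides, and no strain had state 3 there. The run of Zfp804b (chr5:7344379-7344628, minus strand), a gene expressed mainly in the nervous system, holds 16 CG dinucleotides and had state 3 in no strain either. A start rich in CG dinucleotides thus occurred both with and without state 3.

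Zfp gene starts carried state 3 more widely than the starts of protein-coding genes as a whole. At least 1 bin of state 3 lay within 1 kb of the start in all 9 strains in 218 of 325 members (67.1%), where the figure over all genes is 43.0%. A further 54 members had it in 1 to 8 strains, against 11.1% of all genes, and 53 had it in none, against 45.8% of all genes. The number of members with state 3 ranged from 243 in NOD/ShiLtJ to 257 in DBA/2J and NZO/HlLtJ, so the strains lay close together. State 1 was within 1 kb of the start in all 9 strains in 255 members, against 48.8% of all genes. State 8 was there in all 9 strains in 88 members and state 9 in 66, against 12.2% and 6.08% of all genes. State 13 was there in 13 members and state 14 in 27, against 10.7% and 23.1%. With the outer end of the gene span as the start, the count in all 9 strains was 201, or 61.8% of members against 41.1% of all genes.

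**Figure D1:**
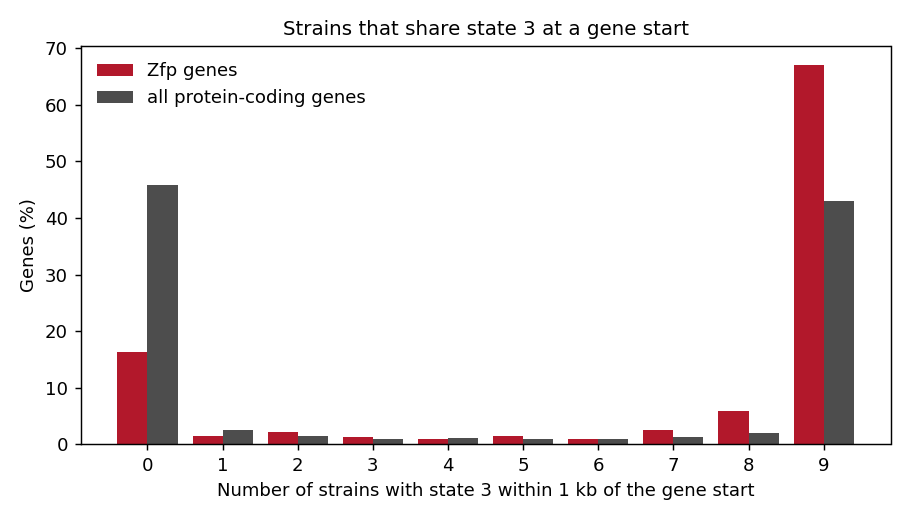
Share of genes (%, vertical axis) by the number of strains, 0 to 9, with state 3 within 1 kb of the gene start, for 325 Zfp genes (red) and all 16457 protein-coding genes with a start (grey). Most Zfp genes sit at 9 strains (67.1%), while all genes split between 0 strains (45.8%) and 9 strains (43.0%).

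The gap was smaller against a narrower comparison set. Without receptor families and unnamed gene models, state 3 lay at the start in all 9 strains in 48.7% of 13679 other genes and in no strain in 39.2%. Both shares remained on the same side of the Zfp values.

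Where state 3 lay at the start in all 9 strains, its bins, adjoining or not, covered less of the start window in Zfp genes. Among the 218 members with it in all 9 strains, state 3 took 668 bp ± 30.7 of the window, against 839 bp ± 43.8 in 6862 other genes with it in all 9 strains. State 3 was most frequent in the bin that holds the start, where 66.7% ± 2.49 of Zfp genes had it, against 39.9% ± 1.18 of other genes. State 1 flanked it on both sides, with 56.4% ± 2.80 of Zfp genes at 400 bp upstream and 60.9% ± 3.16 at 600 bp downstream. In other genes the flanks of state 1 reached 33.3% ± 1.22 and 33.2% ± 1.51.

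States 8 and 9 formed outer shoulders. State 8 reached 38.9% ± 4.59 of Zfp genes at 1400 bp downstream, against at most 17.0% ± 2.05 of other genes downstream. Upstream of Zfp starts it peaked at 12.7% ± 2.57, so its shoulder lay mainly on the gene side. State 9 peaked on both sides, with 39.6% ± 10.6 of Zfp genes at 1400 bp upstream and 39.4% ± 11.3 at 2600 bp downstream. In other genes the state 9 peaks were 16.7% ± 4.60 and 16.4% ± 4.17.

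**Figure D2:**
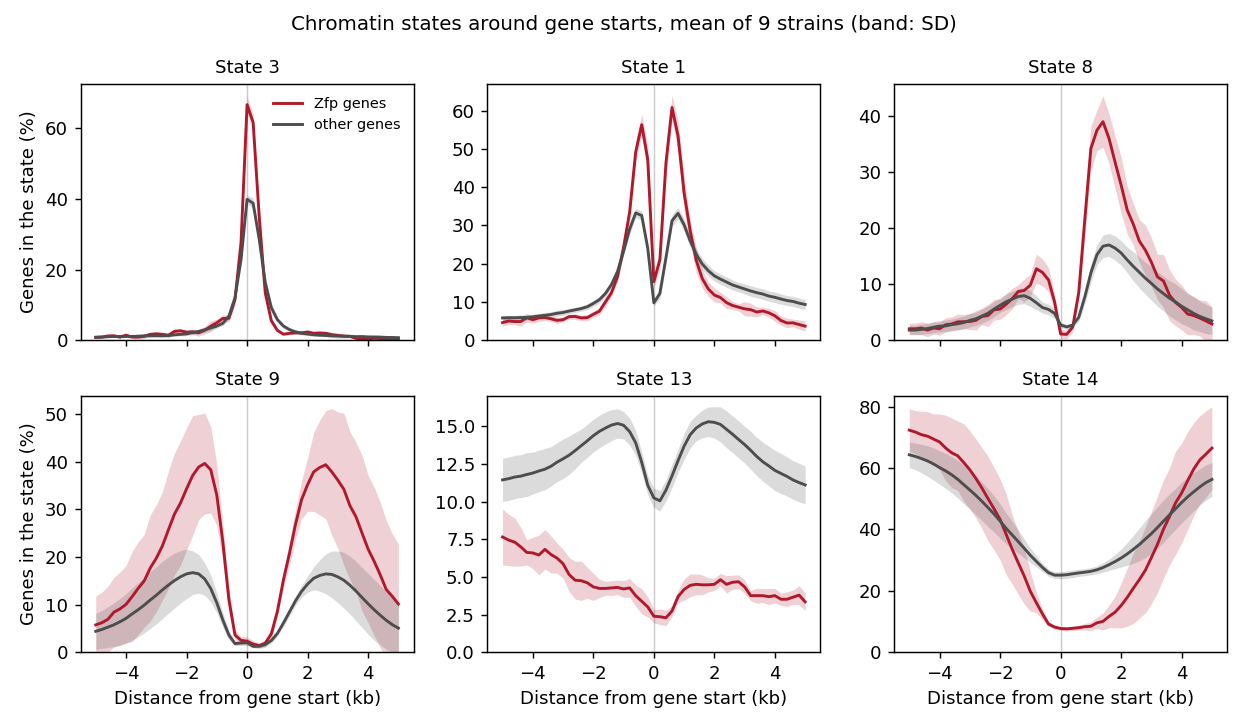
Share of genes (%, vertical axis) in states 3, 1, 8, 9, 13 and 14 by distance from the gene start (kb, horizontal axis; positive is into the gene), for 325 Zfp genes (red) and other genes (grey); lines are means over 9 strains and bands are SD. State 3 at the start, state 1 beside it, and the outer shoulders of states 8 and 9 are taller for Zfp genes, and state 13 is lower throughout.

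Within 1 kb of the start the shares of bins differed between Zfp and other genes in the same direction in every strain for 12 of the 14 states, all but states 5 and 11. State 1 held 40.6% ± 2.64 of the bins against 25.5% ± 1.19, and state 3 held 21.9% ± 1.29 against 17.2% ± 1.06. State 13 held 3.30% ± 0.382 of bins against 12.4% ± 0.742, and state 14 held 10.3% ± 1.44 against 26.7% ± 1.26. For each of these 4 states the adjusted exact sign-flip permutation p over 9 strains was 0.00456, with 9 of 9 strains on the same side.

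At the other end of the gene the picture was plain. Within 1 kb of the far end, state 14 held 81.7% ± 2.97 of Zfp bins and 65.6% ± 2.53 of other bins. In gene bodies, more than 5 kb from both ends, state 14 held 79.6% ± 1.49 of the bins of 250 members and 73.7% ± 1.62 of those of 9567 other genes. State 9 in these bodies was low, at 1.37% ± 1.07 in Zfp genes and 0.275% ± 0.221 in others.

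Over whole padded spans, states 1, 3, 8 and 9 took a larger share of Zfp bins than of other genes' bins, and states 2, 4, 6 and 13 a smaller share, in each of the 9 strains. The adjusted exact sign-flip permutation p was 0.00456 for each of these 8 states. State 3 held 1.67% ± 0.123 of Zfp bins and 0.858% ± 0.0799 of other bins. State 8 held 2.85% ± 0.684 against 1.35% ± 0.405, and state 13 held 5.22% ± 0.798 against 9.75% ± 1.27. State 1 held 5.45% ± 0.385 against 4.55% ± 0.376, a difference that was 0.207 percentage points, with an exact permutation adjusted p of 0.199, when every gene weighed the same. State 14 took most bins of both sets, 71.4% ± 2.28 of Zfp bins and 69.5% ± 1.73 of others. Its difference, higher in 8 of 9 strains with an adjusted exact permutation p of 0.0168, turned to a deficit of Zfp genes when states 13 and 14 were merged or start windows alone were used.

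State 9 showed the largest ratio. By strain it held from 1.62% of Zfp bins in PWK/PhJ to 8.71% in NOD/ShiLtJ, with a median of 4.21%, in DBA/2J. In other genes the ends of the range were again PWK/PhJ, at 0.477%, and NOD/ShiLtJ, at 2.48%. The share of Zfp bins thus varied 5.37-fold between strains, and that of other genes 5.20-fold. The ratio of the 2 shares lay between 3.25 and 3.51 in all 9 strains, with a mean of 3.42 ± 0.0748. A strain with more state 9 in other genes thus had more in Zfp genes by about the same factor. The part of read depth in the strain differences was not tested.

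**Figure D3:**
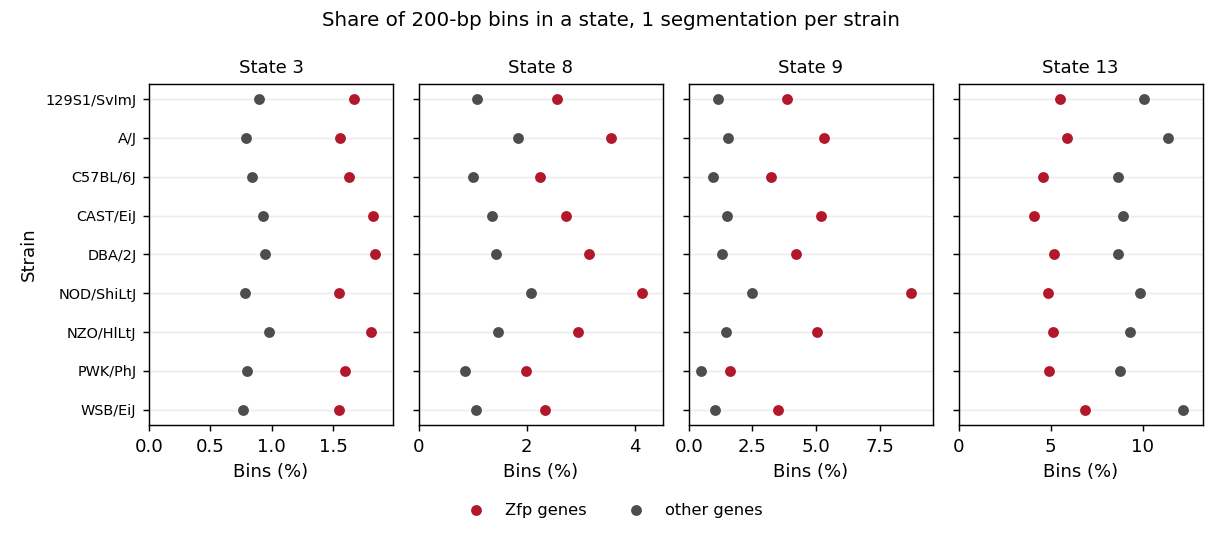
Share of 200-bp bins (%, horizontal axes) in states 3, 8, 9 and 13 in each of 9 strains (vertical axis), for Zfp genes (red) and other protein-coding genes (grey); each point is 1 segmentation. Zfp points lie right of the grey points for states 3, 8 and 9 and left for state 13 in every strain, and state 9 spreads from 1.62% in PWK/PhJ to 8.71% in NOD/ShiLtJ.

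State 9 was spread over many members. Between 248 members in PWK/PhJ and 331 in NOD/ShiLtJ had at least 1 bin of it in their padded span, which is 63.9% and 85.3% of members, against 32.2% and 46.7% of other genes. Its unbroken runs in Zfp genes had a median of 400 bp in PWK/PhJ and 800 bp in NOD/ShiLtJ, and the longest was 11000 bp, in NOD/ShiLtJ. Of the 6033 Zfp bins in state 9 in NOD/ShiLtJ, 78.7% were in state 14 and 12.0% in state 9 in PWK/PhJ. In A/J, the strain with the largest overlap, 51.4% of the same bins were in state 9 and 39.2% in state 14.

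A few small genes lay largely in state 9. They were picked after their values were seen and serve as examples. Zfp688 (chr7:127418963-127423241) had 65.0% of its bins in state 9 on average, from 36.4% in PWK/PhJ to 72.7% in 5 strains. Zfp593 (chr4:134243306-134245591) had 53.0%, from 27.3% in PWK/PhJ to 68.2% in NOD/ShiLtJ. Only 3 members had over 50% of their bins in state 9 on average, against 0.421% of all genes. State 14 held over 50% in 291 members (75%), against 63.7% of all genes. State 13 did so in 5 members and state 1 in another 5, against 7.13% and 3.71% of all genes.

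Zfp genes are unevenly placed. Chromosome 7 holds 93 of the members, chromosome 17 holds 46, chromosome 13 holds 37 and chromosomes 2 and 4 hold 27 each. With a limit of 100 kb to the next member, 222 members were clustered and 166 isolated. Runs of 3 or more members numbered 30 and held 182 members. The longest, on chr13:67038594-67827000, had 23 members from Zfp712 to Zfp273.

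Clustered members carried more of states 8 and 9 and less of states 6 and 13 than isolated members, in each of the 9 strains. State 9 held 7.99% ± 3.51 of the bins of clustered members and 2.33% ± 0.977 of those of isolated members. State 8 held 4.34% ± 0.860 against 1.91% ± 0.585. State 6 ran the other way, at 1.96% ± 0.309 against 5.21% ± 0.472, and so did state 13, at 1.45% ± 0.178 against 7.59% ± 1.29. The adjusted exact sign-flip permutation p was 0.00547 for each of the 4. Bins were pooled, so long genes weigh more. Among isolated members, the long genes Zfp536 and Zfp423 had 34.1% and 35.1% of their bins in state 13. Over the alternatives run, the state 13 difference ranged from -6.37 to -2.81 percentage points and the state 6 difference from -3.49 to -0.290. How reads that match several near-identical copies were treated is not given in the sources used here, and its part in these differences was not tested.

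**Figure D4:**
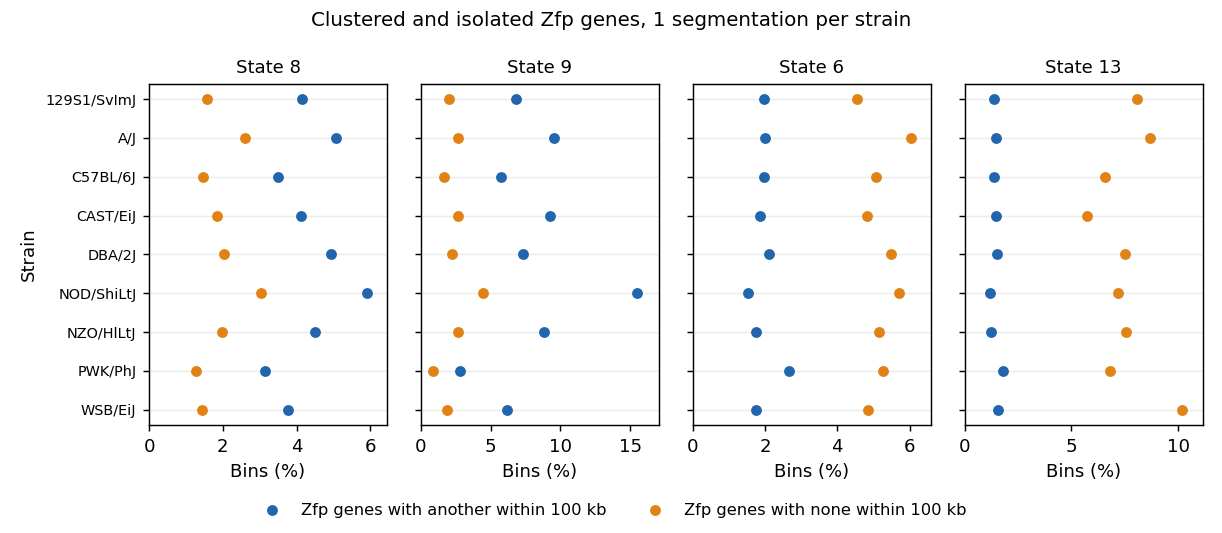
Share of 200-bp bins (%, horizontal axes) in states 8, 9, 6 and 13 in each of 9 strains (vertical axis), for 222 Zfp genes with another within 100 kb (blue) and 166 with none (orange); each point is 1 segmentation. Blue lies right of orange for states 8 and 9 and left for states 6 and 13 in every strain.

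States 1 and 3 held larger shares in clustered than in isolated members when bins were pooled, 6.56% ± 0.399 against 4.76% ± 0.407 and 2.04% ± 0.164 against 1.43% ± 0.108. Both directions turned when every gene weighed the same, with differences of -0.949 and -1.43 percentage points. Clustered genes were shorter, with a median span of 15.8 kb against 20.05 kb. The starts themselves were alike in one respect: 126 of 192 clustered members with a start (65.6%) and 92 of 133 isolated ones (69.2%) had state 3 there in all 9 strains. State 3 at the start in 1 to 8 strains was found in 39 clustered members (20.3%) and 15 isolated ones (11.3%). Over all genes the shares were 43.0% for all 9 strains and 11.1% for 1 to 8 strains. In start windows alone, state 3 held 19.2% ± 1.10 of clustered bins and 26.0% ± 1.69 of isolated bins.

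The arrays were not all the same. The chromosome 13 array had 12.6% ± 4.96 of its bins in state 9 and 72.1% ± 5.59 in state 14, and 16 of its 20 members with a start had state 3 there in all 9 strains. An array of 7 members on chromosome 7 (chr7:127233061-127449158, Zfp553 to Zfp689) had 37.0% ± 13.1 in state 9 and 22.9% ± 13.1 in state 14. An array of 9 members on chromosome 4 (chr4:147124882-147849126, Zfp978 to Zfp933) had 93.8% ± 1.54 of its bins in state 14 and 1.09% ± 0.540 in state 9. In that array 1 of 7 members with a start had state 3 there in all 9 strains, and 4 had it in none. State 13 held 0.113% ± 0.272 and 0.115% ± 0.345 in the first 2 of these arrays and 1.74% ± 1.36 in the chromosome 4 array.

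Members were next grouped by what their proteins are known for, from lists written from general knowledge. The lists were chosen with earlier results of these data known, so the contrasts between them are descriptions. The CCCH genes encode RNA-binding proteins that speed the decay of mRNAs with AU-rich elements. Zfp36 (chr7:28376784-28379228, minus strand) had state 3 in 60.6% ± 4.55 of the bins within 1 kb of its start, and Zfp36l1 (chr12:80107760-80113013, minus strand) in 73.7% ± 3.03. State 1 took the rest of the window in both. Zfp36l2 (chr17:84183924-84187947) has no start in the table. Its padded span was 53.8% state 3 and 45.9% state 1, and on average 5.38% of its bins differed between a pair of strains, the lowest value among members of at least 25 bins that have under 50% of them in state 14.

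Of 13 broadly expressed members with a start, 12 had state 3 there in all 9 strains, where the share is 67.1% over all Zfp genes and 43.0% over all genes. Among them are Zfp143, a factor of housekeeping promoters, Zfp598, a ubiquitin ligase that senses collided ribosomes, and Zfp207, a spindle assembly protein. Zfp91, which encodes a ubiquitin ligase, had state 3 in 9 bins and state 1 in 2 bins of the window in each of the 9 strains. The exception was Zfp217, with state 14 at the start used here in all 9 strains. State 3 lay elsewhere in its padded span in all 9 strains, as it did in 9 of the 53 members with none at the start.

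The lineage-restricted members with a start mostly showed the reverse. None of these 9 had state 3 there in all 9 strains, and 8 had it in none. State 13 lay within 1 kb of the start in all 9 strains in 5 of them, where the figure over all genes is 10.7% and over all Zfp genes 13 of 325. These 5 were Zfp536, Zfp804a and Zfp804b, which are expressed mainly in the nervous system, Zfp365, a gene active in brain, and Zfp385b. Zfp42, a marker of pluripotent cells also known as Rex1, had state 13 in 6 strains and state 14 in 7. Zfp541, a gene of male germ cells, had state 14 in all 9 strains and state 13 in none. The listed Zfp521, Zfp469 and Zfp703 have no start in the table. State 13 held 13.5% of the padded span of Zfp521 and 5.68% of that of Zfp469. Zfp703 went the other way, with 27.8% of its padded span in state 1, 19.8% in state 3 and none in state 13.

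Zfp423, a factor of adipocyte precursors and neural progenitors, stood between these groups, with state 3 at the start in 7 strains. Zfp503, a developmental regulator of striatum and limb (chr14:21983959-21989601), had neither state 1 nor state 3 in its padded span in any strain. States 10, 11 and 12, which are rare elsewhere, held 22.2%, 25% and 31.7% of its bins on average, and state 13 held 16.4%.

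Genes for imprint keeping and retroelement silencing did not form one class. Zfp445, which acts with Zfp57 at imprinted loci, Zfp809, which targets murine leukaemia proviruses, and Zfp932, a repressor of endogenous retroviruses, had state 3 at the start in all 9 strains. At Zfp809 the number of state 3 bins ran from 2 in PWK/PhJ and 3 in C57BL/6J to 7 in CAST/EiJ and NZO/HlLtJ, with a median of 6. Zfp57 had state 13 within 1 kb of the start in 9 strains and state 14 in 6, and neither state 1 nor state 3 in any. State 13 held 40.9% of the padded span of Zfp57 and state 14 held 50.8%. Zfp819 had state 3 in 1 strain, CAST/EiJ, in a single bin. Zfp708, which binds a retroelement family in germ cells, had state 14 at its start in all 9 strains, with state 3 elsewhere in its padded span.

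Of 3 members tied to metabolism, Zfp516, a factor of brown fat, has no start in the table, and the other two had state 3 at the start in all 9 strains. Zfp69 had state 1 in 60.6% ± 6.43 of the window and state 3 in 24.2%, with 2 bins of state 3 in 129S1/SvImJ, DBA/2J and PWK/PhJ and 3 bins in the other strains. Zfp467, a regulator of the choice between fat and bone cells, had 6 to 9 bins of state 3 and 2 to 5 bins of state 1.

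For comparison, a list of genes for the KRAB corepressor TRIM28 and for other chromatin and DNA methylation factors has 21 starts. Of these, 19 had state 3 in all 9 strains, against 43.0% of all genes. Trim28, the scaffold that binds KRAB domains, had 50.5% ± 6.60 of its window in state 1 and 49.5% in state 3. Setdb1, the H3K9 methyltransferase it recruits, had 40.4% ± 9.22 and 25.3%. Uhrf1 had state 3 in 1 strain, and the start used for Dnmt1 had state 14 in all 9 strains.

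Base composition followed the same classes. The 300-base promoter (250 before to 50 after the start) held a median of 16 CG dinucleotides in the 218 members with state 3 in all 9 strains (quartiles 9 and 22). The median was 10.5 in the 54 members with it in some strains and 6 in the 53 with it in none (quartiles 4 and 14). Of these 53, 10 lie on chromosome 4, and 9 had state 3 elsewhere in their padded span in all 9 strains. The part of near-identical copies and of the start used was not tested. Over all 16457 genes it was 14. Zfp804a, with 45 CG dinucleotides and state 13 at the start in all 9 strains, shows that the classes overlap widely in composition.

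Short motifs were counted on both strands of the same promoters, as a description. The letters CCGGAAG, a core bound by ETS factors, stood in 73 of 325 Zfp promoters (22.5%) and in 12.3% of all promoters. CCAAT stood in 49.5% against 39.1%, and TATAAA in 6.15% against 13.5%. Rarer were AAGATGGC, a core bound by YY1 (5.23% against 3.21%), TGACGTCA, the cyclic AMP response element (3.38% against 2.40%), and the palindromic NRF1 motif (3.08% against 1.37%). No motif contains another. CCGGAAG stood in 23.9% of the Zfp promoters with state 3 in all 9 strains and in 9.43% of those with it in none. CCAAT was present at nearly the same rate in both, 48.2% and 49.1%, and TATAAA in 6.42% and 11.3%. CCGGAAG itself holds a CG dinucleotide, and these classes had medians of 16 and 6 of them. The part of base composition in the CCGGAAG difference was not tested. A match says only that the letters are present, and none of these windows was read for binding.

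Agreement between strains did not differ beyond its spread between Zfp and other genes over the bins outside state 14 in at least 1 strain. In these marked bins a strain shared its state with another strain in 65.0% ± 3.69 of Zfp bins and 64.7% ± 3.01 of other bins. The difference of 0.301 ± 1.61 percentage points (higher in 7 of 9 strains) had an exact sign-flip permutation p of 0.633. It ran from 0.143 to 0.595 points when 1 strain at a time was left out, highest without PWK/PhJ. Over all bins, state 14 included, the difference was 1.84 points, with an exact permutation p of 0.0039. Marked bins made up 45.8% of Zfp bins and 50.6% of other bins. The remaining bins were in state 14 in every strain and so agree by definition. In the marked bins NOD/ShiLtJ and PWK/PhJ went against the other strains, at -3.59 and -0.580 points. Within 1 kb of the start alone, agreement was higher in Zfp genes, 76.6% ± 1.41 against 73.6% ± 1.69, with an exact permutation p of 0.0039. Each strain pair enters the agreement of both its strains. The 9 values are therefore not fully independent, which the permutation test of agreement does not take into account.

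The pairs of states behind the disagreement had other proportions in Zfp genes, although states 13 and 14 were the most common pair in both sets. Of the bins in which strain pairs disagreed, 22.0% in Zfp genes and 37.9% in other genes paired state 13 with state 14. States 9 and 14 were paired in 16.1% against 3.80%, states 1 and 8 in 5.52% against 2.64%, and states 8 and 9 in 4.22% against 1.08%. A bin of state 3 in one strain was in state 3 in another in 81.0% of cases in Zfp genes, against 79.2% in other genes, and it was the highest rate after state 14 in both. A bin of state 9 was in state 9 in 62.0% against 60.8%.

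Per gene, the share of bins that differed between 2 strains had a median of 16.4% over the 388 members and 19.8% over all genes. With states 13 and 14 merged the order turned, with a median of 14.97% over members and 12.4% over all genes. By strain, the median difference from the other strains was highest in NOD/ShiLtJ, at 19.9%, and PWK/PhJ, at 19.5%, and between 14.2% and 16.0% in the remaining 7. Over all genes the medians were 20.2% in NOD/ShiLtJ, 22.0% in PWK/PhJ and 17.6% to 20.1% in the remaining 7. The Zfp median was below that over all genes in every strain.

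The 10 members that differed most ranged from 40.4% to 55.8% and came first through Zfp324, Zfp872, Zfp965, Zfp189 and Zfp970. The others were Zfp503, Zfp687, Zfp973, Zfp771 and Zfp853. In Zfp324 (chr7:12965838-12974244) the strains went separate ways across the gene. C57BL/6J had 52.8% of its bins in state 4, NOD/ShiLtJ had 66.0% in state 9 and PWK/PhJ had 66.0% in state 14. Strain pairs differed in between 32.1% and 86.8% of its bins.

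Zfp189 (chr4:49521176-49531558) kept state 3 at its start, with 5 or 6 bins in every strain, while the rest of the gene changed. PWK/PhJ had 33.3% of its bins in state 6, 28.6% in state 1, 20.6% in state 4 and none in states 9 or 14. NOD/ShiLtJ had 61.9% in state 9 and none in state 14. The other 7 strains had 25.4% to 55.6% in state 14. PWK/PhJ differed from the other strains in 78.4% of bins on average.

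Zfp970, on chromosome 2 (chr2:177464742-177479194), was furthest apart in CAST/EiJ. That strain had 56.6% of the bins in state 1, 24.1% in state 2 and none in state 14. DBA/2J had 2.41% in state 1 and 54.2% in state 14. CAST/EiJ was also the most different strain at Zfp872, Zfp965 and Zfp973, and PWK/PhJ at Zfp324, Zfp189, Zfp503, Zfp771 and Zfp853. At Zfp687 it was NOD/ShiLtJ, by a small margin, with 47.1% against 37.2% in C57BL/6J, the least different strain there. State 4 at Zfp687 ran from 7.69% in A/J to 55.6% in DBA/2J. Zfp965, Zfp970 and Zfp973 all lie on chromosome 2. The part of reads that match several similar copies in their strain differences was not tested.

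Zfp853 (chr5:143285999-143293982) differed through state 13, which held 9.80% of its bins in PWK/PhJ and 43.1% to 58.8% in the other strains. State 14 held 80.4% in PWK/PhJ and at most 35.3% elsewhere, so PWK/PhJ did not overlap the other strains in either state.

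At the other end, Zfp281 (chr1:136624901-136630391) and Zfp707 (chr15:75969123-75975868) differed in 5.70% and 6.42% of bins. State 1 held 82.2% of Zfp281 and 84.0% of Zfp707, and state 3 held 14.6% and 14.1%. At Zfp281 the state 3 segment over the start began at chr1:136624601 in all 9 strains. It ended at 136625600 in 7 of them and 136625800 in 129S1/SvImJ and DBA/2J. Within 1 kb of the start, PWK/PhJ and WSB/EiJ had 6 bins of state 3 and DBA/2J had 7. In these strains state 3 thus also lay outside that segment.

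State 3 at the start varied by strain in a smaller set. Among the members with it in 2 to 7 strains, the range of state 3 bins over strains was largest, at 3 to 5, in 12. Of these, 10 were taken, with ties in alphabetical order: Zfp423, Zfp618, Zfp651, Zfp710, Zfp781, Zfp788, Zfp872, Zfp951, Zfp972 and Zfp982. Left out by that order were Zfp983 and Zfp984, also with a range of 3. No group of strains recurred throughout. At Zfp788 (chr7:41633531-41650881) CAST/EiJ and DBA/2J had 5 bins each, NZO/HlLtJ and PWK/PhJ had 2 each, and the other 5 strains had none. At Zfp618 (chr4:62965555-63139709) NZO/HlLtJ had 5 bins, and DBA/2J, NOD/ShiLtJ and WSB/EiJ had none.

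Zfp872 (chr9:22188166-22202123), whose upstream sequence is printed above, had 5 bins in NOD/ShiLtJ, 3 in DBA/2J and 2 in WSB/EiJ and none in the other 6 strains. Absence of state 3 there did not mean the same state in each strain. All 11 bins of the CAST/EiJ window were in state 1, while A/J and NZO/HlLtJ had no bin in state 1. Zfp651 had state 3 in NZO/HlLtJ and PWK/PhJ alone, with 3 and 2 bins, and Zfp982 in NZO/HlLtJ and WSB/EiJ alone, with 3 bins and 1. The strains' own sequences at these starts were not analysed here, so whether a promoter differs in sequence between strains was not tested.

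**Figure D5:**
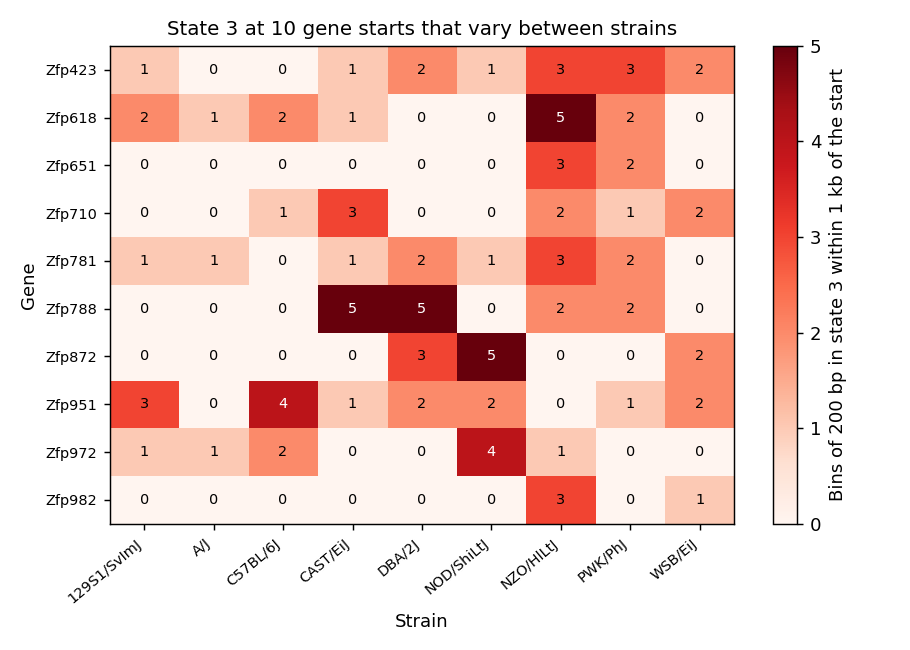
Number of 200-bp bins in state 3 within 1 kb of the start (colour and printed value, 0 to 5) for 10 Zfp genes (rows) in 9 strains (columns), 1 segmentation each. Zfp788 reaches 5 bins in CAST/EiJ and DBA/2J, Zfp872 in NOD/ShiLtJ and Zfp618 in NZO/HlLtJ, and no strain has state 3 at all 10 starts.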

How the data were processed

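ChIP-seq of 4 histone marks and input was deposited as 1 segmentation per strain. In the authors' files each interval carries a category, the state number, per the file headers, and neither a count nor a signal. The submitters' processing notes name build mm10, FastQC 0.11.5 and MACS 1.4.2 without a role. The segmentation tool, the aligner and the handling of reads that match several places are not given in the sources used here. Libraries were grouped by the labelled strain, and depth is unknown.

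Intervals were written as 200-bp bins on 19 autosomes. Genes came from the RefSeq table of GRCm38.p6, the assembly that mm10 follows, and spans were padded by 1 kb. Strands, starts and promoters came from the RefSeq promoter table for 325 members. Of these, 56 have several entries, and the most upstream was used. This choice of start was made after the counts under both kinds of start had been seen. Members on chromosome 18 have no start there.

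Each strain's difference between 2 gene sets was 1 value. The exact sign-flip permutation test of their mean was two-sided, used all 512 sign patterns of the 9 strains and cannot go below p = 0.0039. Benjamini-Hochberg adjustment ran over 14 states. The p-values measure the spread between related strains and not between mice. Counts over genes have no test. The members and lists were chosen with earlier results of these data known.

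Named genes are the 10 with the highest strain difference among those with at least 25 bins, 10 with state 3 at the start in 2 to 7 strains and the largest range of its bins (ties by symbol), the 3 with the lowest difference and under 50% of bins in state 14, and the list members. Zfp92 and Zfp125, both listed, were not among the members. Planned splits by KRAB domain and by finger number need protein sequences and were not run. Python 3.11.15, numpy 2.4.6, pandas 2.3.3 and matplotlib 3.10.9 were used, and the code was tested on simulated data.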

Additional observations from a re-analysis of the deposited data

Results flagged for a closer look

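In 1 of 33 sets of 9 strain values examined, a strain lay apart from the rest of its group by more than the 95% limit of Dixon's test, and chance flags about 1 set in 20. It was the agreement of marked bins in Zfp genes minus that in other genes, where NOD/ShiLtJ was at -3.59 percentage points and the other 8 strains lay between -0.580 and 1.78. NOD/ShiLtJ was also the strain with the largest share of state 9 in Zfp genes, 8.71%. Its lowest agreement in Zfp genes was with PWK/PhJ, at 51.7% of marked bins, against 57.8% in other genes. The part of state 9 in this value was not tested.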

How the results depend on the processing

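Differences are in percentage points. Of the comparisons of Zfp with other genes, states 2, 3, 4, 6, 8, 9 and 13 kept their direction and their side of the threshold under every alternative run. The state 14 difference of 1.93 turned to -2.59 with states 13 and 14 merged and to -16.4 in start windows, and that of state 1 was 0.207 and not past the threshold when every gene weighed the same. Between clustered and isolated members, states 6, 8, 9 and 13 held under every alternative run. With every gene weighing the same, state 1 turned to -0.949 and state 3 to -1.43, and state 3 was -6.78 in start windows. State 14, at 2.33 with an adjusted exact permutation p of 0.0673, passed the threshold without padding (3.07), with 5 kb of padding (3.37), with 50 kb to the next member (3.05), with every gene weighing the same (4.98) and without NOD/ShiLtJ. It turned to -3.81 with states 13 and 14 merged and -0.353 in start windows. Leaving out 1 strain at a time it ran from 1.84 to 3.16, and no other result changed its side of the threshold under that alternative. The agreement difference of 0.301 was -0.0872 with 5 kb of padding and passed the threshold over all bins (1.84) and in start windows (2.99). The count of members with state 3 at the start in all 9 strains ran from 169, with at least 2 bins required, to 261, with states 1, 2 or 3 accepted. Start windows, the outer end of the span, either end of every gene and the narrower comparison set were chosen after the data had been seen. No paired analysis was possible because the mice that carry the same number in each strain are combined in 1 segmentation per strain. Splits by KRAB domain and finger number were not run. Depth is unknown, so no limit from counting error can be given.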

Other observations

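State 13 held over 50% of the bins on average in 5 members, or 1.29% of them, against 7.13% of all genes. All lie outside the lists and are named here after their values were seen. The shares are of each gene's own bins. Zfp616 (chr11:74060897-74087301) had 88.7% ± 6.40 of its bins in state 13 (SD, n = 9 strains), and Zfp735 (chr11:73688778-73713808) had 68.6% ± 12.7. The 2 genes lie 347 kb apart with no other Zfp gene between them. Zfp474 (chr18:52615906-52639832) had 57.8% ± 15.5. Zfp286 (chr11:62751951-62789506) had 54.3% ± 4.85, and Zfp648 (chr1:154201187-154213209) had 51.5% ± 19.1. Just below came Zfp827 (chr8:79027486-79193768), a longer gene also outside the lists, with 49.0% ± 6.14.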
